A study of Mus musculus with 2 samples.

Results

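The genes described here are 48 genes of mitosis and the kinetochore, chosen by name as a functional group and read in Langerhans cells, which carry Langerin and present antigen in the epidermis. They were taken from the 19937 genes that had a probe set with a single gene symbol. Of the 48, 47 had such a probe set, and Ccnb1, which encodes the cyclin that activates CDK1 at mitotic entry, was not analysed here. Each of 2 arrays held 1 genotype: Il34+/LacZ, with 1 working copy of Il34 and a LacZ allele at the other, and Il34LacZ/LacZ, with LacZ at both copies. IL-34, a keratinocyte cytokine, binds the CSF1 receptor, and the comparison asks how Langerhans cells differ without it. Mice of both genotypes were 8 to 12 weeks old and received ultraviolet light for 30 min, and cells positive for Langerin and Epcam were sorted 21 days afterwards. Both groups therefore carried LacZ and had been irradiated, and the control was heterozygous, not wild type. The labels do not say how many animals each array stands for.

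Mitosis is driven by CDK1 and its cyclins, which trigger chromosome condensation, spindle assembly and the attachment of microtubules to kinetochores, the protein plates built on centromeres. The spindle checkpoint holds back the anaphase-promoting complex until every kinetochore is attached, after which securin and cyclin are destroyed, separase opens cohesin and the cell divides. Langerhans cells are known to maintain themselves by dividing within the epidermis, and strong skin injury can add cells that arise from monocytes. Transcripts of these genes peak in G2 and M phase, and their promoters often carry the letters TTTGAA (the cell cycle homology region) near the start site together with CCAAT boxes, the sites of NF-Y.

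Promoter windows were examined because the genes are known as a co-regulated group. The RefSeq promoter table of build GRCm38.p6, whose windows run from 250 bases before to 50 after a start site, held 45 windows of 40 of the 48 genes. TTTGAA, searched on both strands, was present in 32 of the 45 windows (71.1%) against 17.9% of all 32851 windows of the same length. CCAAT, also on both strands, was present in 36 windows (80.0%) against 37.4% of all windows. Both were present in 64.4% against 6.95%. Matches of the 2 motifs overlapped in 1 of the 45 windows. The 6 windows below are shown because Kif11, Smc2, Anln and Ndc80 read lower on the Il34LacZ/LacZ array by 1.5-fold or more, whereas Mad2l1 and Pttg1 read higher there. They were chosen after these values were seen. Kif11, Smc2, Anln and Ndc80 passed the level filter described below through Il34+/LacZ alone, so they had to read lower. Capitals mark TTTGAA and CCAAT or their reverse complements, and each window is written 5′ to 3′ along the gene's strand.
Kif11, chr19:37376132-37376431, plus strand: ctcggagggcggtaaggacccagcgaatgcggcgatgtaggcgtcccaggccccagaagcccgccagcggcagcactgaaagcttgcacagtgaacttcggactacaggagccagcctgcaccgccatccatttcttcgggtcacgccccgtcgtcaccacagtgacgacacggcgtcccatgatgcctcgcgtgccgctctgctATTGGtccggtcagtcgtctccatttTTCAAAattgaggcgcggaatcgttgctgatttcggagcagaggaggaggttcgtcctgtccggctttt
Smc2, chr4:52438971-52439270, plus strand: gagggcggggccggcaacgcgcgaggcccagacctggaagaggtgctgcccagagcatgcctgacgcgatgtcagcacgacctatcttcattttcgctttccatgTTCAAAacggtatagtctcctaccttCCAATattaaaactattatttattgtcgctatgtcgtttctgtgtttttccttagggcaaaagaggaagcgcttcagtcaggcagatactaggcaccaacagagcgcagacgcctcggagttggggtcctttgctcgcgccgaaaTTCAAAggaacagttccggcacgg
Anln, chr9:22389157-22389456, minus strand: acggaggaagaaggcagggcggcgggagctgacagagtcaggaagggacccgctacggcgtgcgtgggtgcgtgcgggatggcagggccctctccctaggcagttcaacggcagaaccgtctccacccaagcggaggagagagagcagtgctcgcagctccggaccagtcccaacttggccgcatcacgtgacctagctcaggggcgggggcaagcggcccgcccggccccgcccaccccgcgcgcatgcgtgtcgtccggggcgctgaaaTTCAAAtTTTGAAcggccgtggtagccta
Ndc80, chr17:71526808-71527107, minus strand: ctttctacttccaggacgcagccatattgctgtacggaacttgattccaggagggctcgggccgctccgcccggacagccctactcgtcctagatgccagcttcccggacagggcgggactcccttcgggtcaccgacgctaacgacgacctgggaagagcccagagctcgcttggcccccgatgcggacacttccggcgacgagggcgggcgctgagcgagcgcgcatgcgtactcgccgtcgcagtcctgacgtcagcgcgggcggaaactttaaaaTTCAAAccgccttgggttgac
Mad2l1, chr6:66534971-66535270, plus strand: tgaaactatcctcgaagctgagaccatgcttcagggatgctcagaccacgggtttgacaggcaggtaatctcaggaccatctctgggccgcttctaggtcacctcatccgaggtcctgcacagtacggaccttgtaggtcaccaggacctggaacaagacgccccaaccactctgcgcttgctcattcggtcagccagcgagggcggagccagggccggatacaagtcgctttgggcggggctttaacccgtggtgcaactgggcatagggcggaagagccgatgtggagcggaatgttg
Pttg1, chr11:43425932-43426231, minus strand: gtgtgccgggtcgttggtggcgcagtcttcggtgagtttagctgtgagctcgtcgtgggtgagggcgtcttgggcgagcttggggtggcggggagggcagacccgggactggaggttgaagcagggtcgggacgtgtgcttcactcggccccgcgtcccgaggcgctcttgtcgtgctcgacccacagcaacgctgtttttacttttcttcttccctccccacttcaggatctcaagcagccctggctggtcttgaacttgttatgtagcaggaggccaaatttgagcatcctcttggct

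The Kif11 window holds the pair in close order, with the reverse of CCAAT beginning at -45 and that of TTTGAA at -19 from the start. Anln has 2 copies of TTTGAA and no CCAAT, and Ndc80 has 1 copy and no CCAAT. Neither motif is in the windows of Mad2l1 and Pttg1. Genes with and without TTTGAA had similar medians. Among the 37 genes with a window that passed the level filter described below, the 28 with TTTGAA had a median difference of -0.89 (range -1.54 to 0.24) and the 9 without it a median of -0.86 (range -1.28 to 0.90). With the trend of difference with level removed, a scale described below, the medians were -0.68 with TTTGAA and -0.51 without it. As deposited, 26 of the 28 and 6 of the 9 read lower, some because of the filter, beside 56.3% of all genes. The genes without either motif also included Birc5, Nuf2 and Nusap1, which read lower in Il34LacZ/LacZ.

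Levels are processed intensities of a probe set on a linear scale, and a difference subtracts the Il34+/LacZ reading from the Il34LacZ/LacZ reading on log2(intensity + 16), a scale that understates the change of dim genes. With 1 array per genotype there is no replicate error and no test, so every value below is a single measurement. The only error the data hold is the disagreement between different probe sets of the same gene, an SD of 0.634 (1.55-fold, from 614 genes), which covers probe noise and isoforms but not animals, sorts or amplification. No gene of the group had a second probe set of its own bright enough to check it against. A gene was used where its higher reading reached the median of all probe sets, an intensity of 48.7, called the floor. This left 12843 genes in all and 44 of the 47. Where the other reading lay under that value, the floor took its place and the fold is written "at least". Paired readings below give Il34+/LacZ first and Il34LacZ/LacZ second, and "lower" and "higher" describe the second. Of the 44, 31 reached the floor on both arrays and 13 passed through Il34+/LacZ alone, so those 13 had to read lower in Il34LacZ/LacZ. They were Cdk1, Bub1, Cenpe, Cenpf, Ndc80, Nuf2, Smc2, Ncapg, Kif11, Kif4, Kif2c, Kif20a and Anln. For these 13, single-gene differences with the trend removed, a scale described below, are given with the floor in place of the lower reading.

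Both arrays read the sorted cell type far above the floor. Cd207, which encodes Langerin, read 3153.0 and 1852.0, and Epcam read 632.9 and 707.7. No Langerhans cell marker of 13 was below the floor on both arrays. T cell genes were also well above it, with Cd3e, a chain of the T cell receptor complex, at 1245.4 and 1250.3. In sorted bulk cells, fewer cells of a type and less RNA per cell cannot be told apart.

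Most mitosis genes read lower in Il34LacZ/LacZ. Of the 44, 39 were lower and 5 higher, where 56.3% of all genes were lower, but 13 of the 39 had to be lower by the filter. Of the 31 genes at the floor on both arrays, 26 were lower, against 65.6% of the 9803 such genes in all, and 18 were at least 1.5-fold lower, against 33.6%. For all 44, the median difference was -0.89 against -0.16 over all 12843 genes. At least 1.5-fold lower were 26 of the 44, against 28.2% of all genes, and 13 were at least 2-fold lower, against 12.1%. Mad2l1 alone was at least 1.5-fold higher, against 9.36% of all genes, and none was at least 2-fold higher, against 1.67%. With every gene that had a probe set counted and no floor, the median over 47 was -0.86, and 29 were at least 1.5-fold lower against 19.6% of all genes without a floor. The counts depended on the setting. With the floor at the 75th percentile, 9 of 26 (34.6%) were at least 1.5-fold lower, against 36.2% of all genes, so the share was no higher than the background. At least 2-fold lower were 5 of 44 (11.4%) with the arrays centred on their 75th percentile, against 5.92% of all genes. With a pseudocount of 64 they were 2 of 44 (4.55%), against 6.45% of all genes, again no higher than the background.

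**Figure D1:**
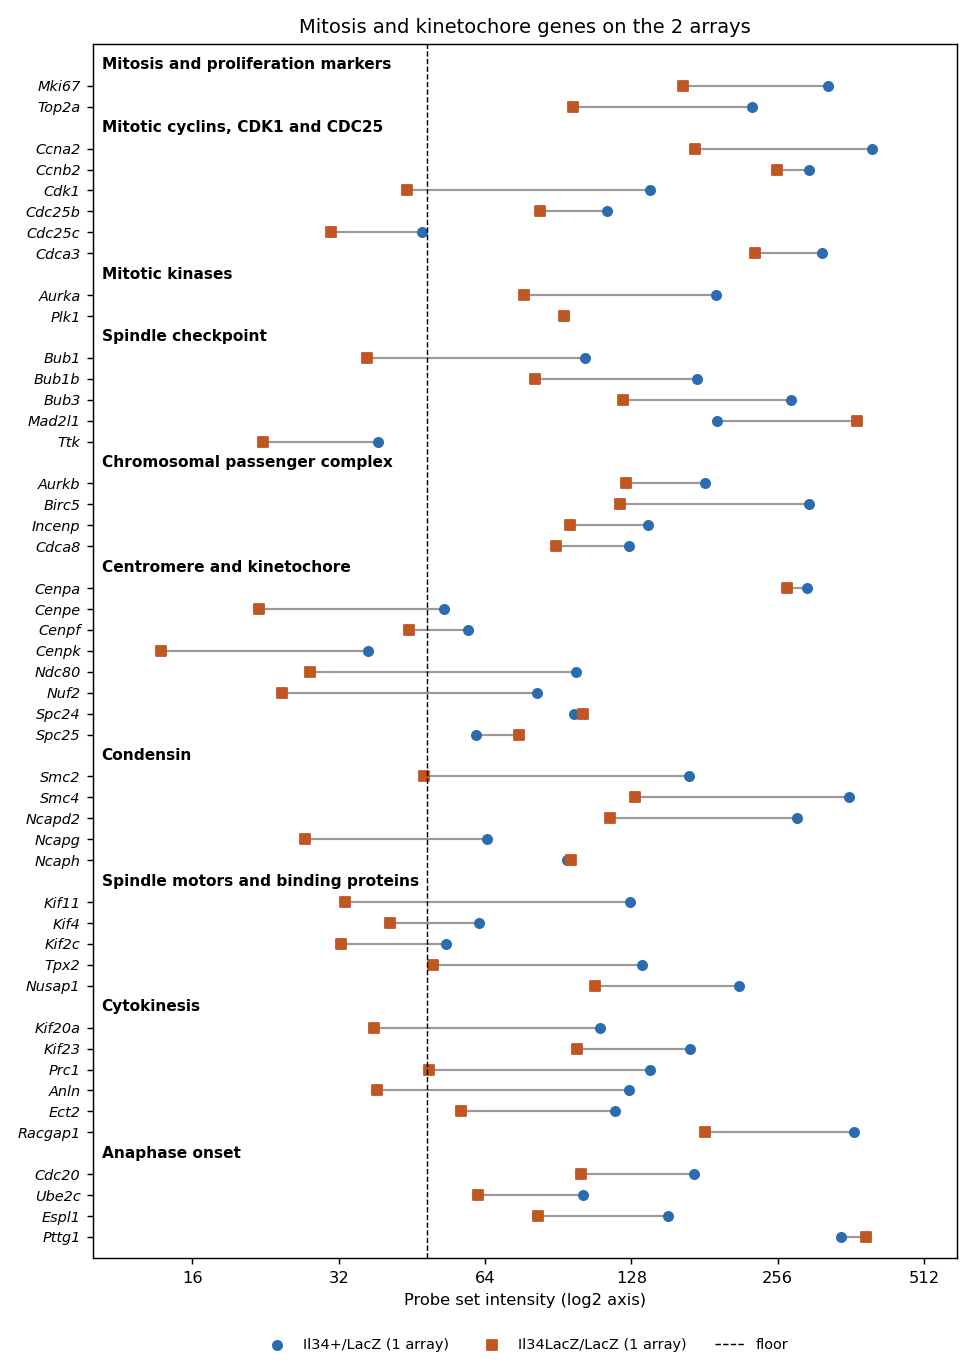
Probe set intensity (log2 axis) of the 47 mitosis and kinetochore genes with a probe set, grouped by role, on the Il34+/LacZ array (blue circles) and the Il34LacZ/LacZ array (orange squares), 1 array each, with the floor of 48.7 as a dashed line. Orange lies left of blue in most rows, on top of it for Plk1 and to its right for Mad2l1, Pttg1, Spc24, Spc25 and Ncaph.

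The difference between the arrays depended on the level of a gene, so the mitosis genes were also set against genes of the same level. Probe sets with a mean level between 200 and 500 had a median difference of -0.61, and those between 20 and 50 one of 0.32. A loess curve fitted to difference against mean level was subtracted, which sets the typical gene of each level near 0. The median of the 44 was then -0.63, against 0.03 over all genes, or -0.57 against -0.07 with readings raised to the floor. For the 31 genes at the floor on both arrays it was -0.39, against -0.03 over the 9803 such genes, and as deposited -0.69 against -0.30. At least 1.5-fold lower on this scale were 20, against 17.2% of all genes, and 2 were higher, against 12.2%. At least 2-fold lower were 9, against 5.43%, and 1 was higher, against 3.96%. Over the 500 genes nearest in level to each mitosis gene, a mean of 29.3% were at least 1.5-fold lower as deposited, against 59.1% of the mitosis genes themselves.

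**Figure D2:**
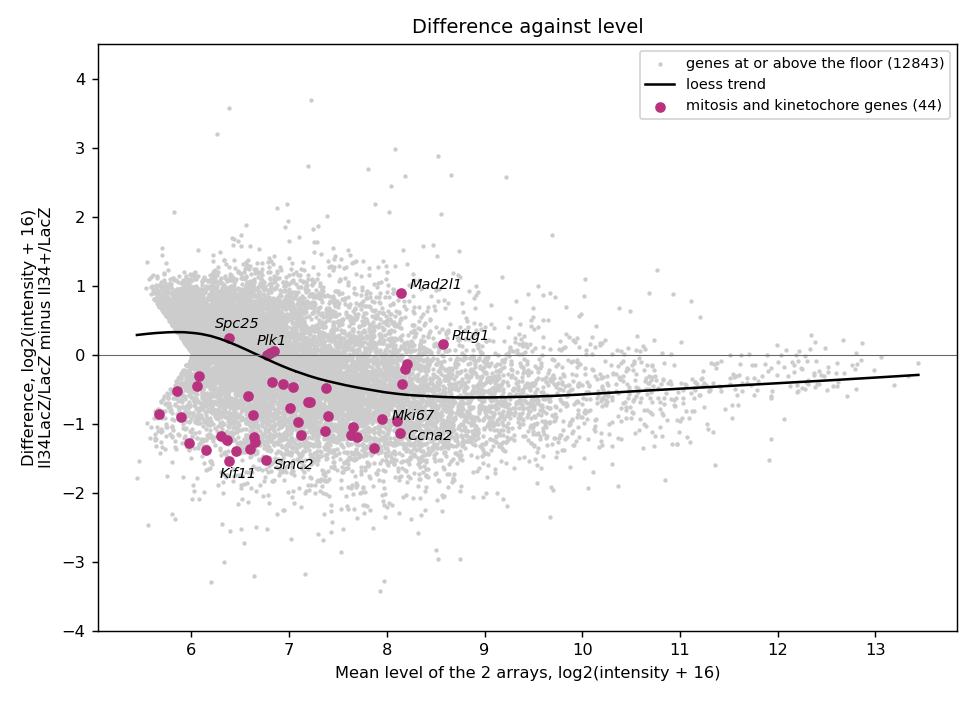
Difference between the arrays on log2(intensity + 16), Il34LacZ/LacZ minus Il34+/LacZ, against the mean level, for the 12843 genes at or above the floor (grey), their loess trend (black line) and the 44 mitosis and kinetochore genes (magenta). Most magenta points lie below the line, while Mad2l1 and Pttg1 lie above it.

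The spread among the mitosis genes was close to that among other genes. Their differences with the trend removed had an SD of 0.69, against 0.65 over the 11320 genes within the same range of levels. The 22 genes under the group's median level include all 13 that were below the floor in Il34LacZ/LacZ. Their median difference was -0.89 as deposited and -0.60 with readings raised to the floor, and that of the 22 brighter genes was -0.83 on both scales. With the trend removed, the dimmer genes had a median of -1.19, or -0.78 with readings raised to the floor. The brighter genes had -0.39 either way. At least 1.5-fold lower with the trend removed were 13 dimmer genes, 9 of them below the floor in Il34LacZ/LacZ, and 7 brighter genes.

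The general proliferation markers read lower. Mki67, the antigen Ki-67 that coats mitotic chromosomes, read 325.0 and 163.3, a 1.90-fold lower level, but its difference of -0.39 with the trend removed was within the probe set SD. Top2a, the topoisomerase that untangles sister DNA, read 227.1 and 97.2, 2.15-fold lower, and -0.73 with the trend removed.

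The drivers of mitotic entry did not read alike. Ccna2, cyclin A2 of S and G2 phase, read 400.7 and 173.0, 2.20-fold lower. Cdk1, the kinase that the mitotic cyclins activate, read 139.8 and 44.3, at least 2.41-fold lower, and -1.32 with the trend removed. Cdk1 had to read lower by the filter, though not by that much. Ccnb2, cyclin B2, read 297.6 and 255.5, or -0.21 as deposited and 0.37 with the trend removed. Its partner kinase thus read lower while the cyclin differed by less than the probe set SD. Cdc25b, a phosphatase that activates CDK1, read 114.3 and 82.9, and Cdca3, a trigger of mitotic entry, read 315.9 and 230.4. Their differences of -0.40 and -0.43 were -0.30 and 0.15 with the trend removed, both within the probe set SD. Cdc25c, the related phosphatase, was below the floor on both arrays.

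The mitotic kinases split. Aurka, the Aurora kinase of centrosomes, read 190.9 and 76.9, 2.23-fold lower and -0.89 with the trend removed. Plk1, the polo-like kinase that acts throughout mitosis, read 93.2 and 93.1, and 0.06 with the trend removed.

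In the spindle checkpoint, the BUB genes read lower and Mad2l1 higher. Bub1, a kinase of unattached kinetochores, read 102.8 and 36.5, at least 1.83-fold lower. Bub1 had to read lower by the filter, though not by 1.5-fold. Bub1b, which encodes the checkpoint protein BUBR1, read 174.5 and 81.0, 1.96-fold lower. Bub3, the partner of both, read 272.6 and 123.0, 2.08-fold lower. With the trend removed these 3 differed by -1.10, -0.72 and -0.59. Mad2l1 encodes MAD2, the protein that binds and blocks CDC20. It read 192.2 and 372.5, 1.87-fold higher, and 1.47 with the trend removed, above 97.8% of the 500 genes nearest in level. The difference of Bub1 lay at -1.78 relative to that of Mad2l1 with the floor applied, against an SD of 0.90 that probe set disagreement gives for a pair. This pair sets a gene that had to read lower against the gene with the highest difference of the group, which widens the gap. Ttk, the checkpoint kinase MPS1, was below the floor on both arrays.

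In the chromosomal passenger complex, which corrects faulty attachments, all 4 genes read lower, where 56.3% of all genes did. Of the 4, 1 passed 1.5-fold, against 28.2% of all genes, so this share was not above the background. Birc5 encodes survivin, the subunit that docks the complex at centromeres, and read 297.4 and 121.5, 2.28-fold lower. The kinase Aurkb read 181.7 and 125.0, the scaffold Incenp 138.3 and 95.7, and Cdca8, which encodes borealin, 126.7 and 89.7. These 3 differed by -0.49, -0.47 and -0.43, each under 1.5-fold, and by -0.11, -0.24 and -0.26 with the trend removed. Birc5 was at -0.71 with the trend removed. The gaps between Birc5 and the other 3 were smaller than the SD of 0.90 for a pair of probe sets.

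In the NDC80 complex, the rod that grips microtubules at the kinetochore, 2 genes read lower and 2 slightly higher. The 2 lower genes, Ndc80 and Nuf2, had to be lower by the filter. Ndc80 and Nuf2 form the end that binds microtubules. Ndc80 read 98.4 and 27.9, at least 1.77-fold lower, and Nuf2 read 81.9 and 24.5, at least 1.51-fold lower. Spc24 and Spc25 form the end that faces the centromere. Spc24 read 97.7 and 101.7, and Spc25 read 61.3 and 75.2, differences of 0.05 and 0.24. With the trend removed, Ndc80 and Nuf2 differed by -1.11 and -0.92, and Spc24 and Spc25 differed by 0.17 and 0.06. With the floor applied, Ndc80 and Nuf2 differed from Spc24 and Spc25 by -1.06 to -0.65, about the size of the SD of 0.90 for a pair of probe sets.

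The other centromere genes were near the floor, except Cenpa. Cenpa, the histone variant that marks centromeres, read 294.8 and 267.2, or -0.13 as deposited and 0.45 with the trend removed. Cenpe, a kinetochore motor, read 52.6 and 21.9, and Cenpf, a large kinetochore protein, read 59.1 and 44.7, so their folds were at least 1.06 and 1.16 only. Cenpe and Cenpf had to read lower by the filter. Cenpk, a subunit of the inner kinetochore network, was below the floor on both arrays, at 36.8 and 13.8.

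Condensin, the ring that compacts chromosomes, read lower in 4 of 5 genes, 3 of them by at least 2-fold, against 12.1% of all genes. Of the 4, Smc2 and Ncapg had to read lower by the filter. Smc2 and Smc4 are the paired ATPases of condensin. Smc2 read 168.5 and 47.9, at least 2.85-fold lower, and Smc4 read 358.4 and 130.4, 2.56-fold lower. Ncapd2, a regulatory subunit of condensin I, read 280.1 and 115.8, 2.25-fold lower, and Ncapg, the other regulatory subunit, 64.7 and 27.3, at least 1.25-fold lower. With the trend removed, Smc2, Smc4, Ncapd2 and Ncapg differed by -1.45, -0.83, -0.71 and -0.64. Ncaph, the kleisin that closes the ring, read 94.3 and 96.1 and did not share the lower reading, at 0.02 as deposited and 0.10 with the trend removed.

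All 5 genes of spindle motors and spindle-binding proteins read lower, where 56.3% of all genes did, but Kif11, Kif4 and Kif2c had to by the filter. Kif11, the motor that pushes spindle poles apart, read 127.0 and 33.0, at least 2.21-fold lower. With the trend removed it differed by -1.32. Tpx2, which activates Aurora A on the spindle, read 134.9 and 49.9, 2.29-fold lower, and Nusap1, a microtubule bundling protein, read 213.6 and 107.6, 1.86-fold lower. With the trend removed, Tpx2 differed by -1.22 and Nusap1 by -0.51, the latter within the probe set SD. The chromosome motor Kif4 read 62.1 and 40.7, and Kif2c, which dismantles microtubules at centromeres, 53.2 and 32.4. These dim genes were at least 1.21-fold and 1.07-fold lower.

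All 6 cytokinesis genes were at least 1.5-fold lower, against 28.2% of all genes. Of these, Anln and Kif20a had to read lower by the filter, though not by 1.5-fold. Anln, the actin scaffold anillin of the cleavage furrow, read 126.5 and 38.4, at least 2.20-fold lower. Prc1, the crosslinker of the spindle midzone, read 139.5 and 49.1, 2.39-fold lower, and Kif20a, a midzone motor, read 110.5 and 37.9, at least 1.95-fold lower. These 3 differed by -1.28, -1.27 and -1.16 with the trend removed. Kif23 and Racgap1 together form centralspindlin, which recruits the exchange factor Ect2. Kif23 read 168.7 and 98.8, Racgap1 367.6 and 181.5, and Ect2 118.7 and 57.1. With the trend removed, Kif23 and Racgap1 each differed by -0.39, within the probe set SD, and Ect2 by -0.91.

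At anaphase onset, separase and securin read in opposite directions. Espl1, the protease separase, read 152.2 and 82.4, 1.71-fold lower. Pttg1, its inhibitor securin, read 345.9 and 389.3, 1.12-fold higher, and 0.78 with the trend removed. Their differences lay -0.94 apart, about the SD of 0.90 for a pair of probe sets. Cdc20, the activator of the anaphase-promoting complex, read 172.2 and 101.0, 1.61-fold lower, and Ube2c, the ubiquitin-conjugating enzyme of that complex, 102.0 and 61.9, 1.51-fold lower. Their differences with the trend removed were -0.37 and -0.66.

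Other cell cycle genes were counted in the same way, beside the 28.2% of all genes that were at least 1.5-fold lower and the 9.36% that were higher. In these lists too, a fold written "at least" marks a gene that passed on 1 array alone, with its direction set by the filter. Of 78 further mitosis and kinetochore genes, 55 reached the floor, and 18 (32.7%) were at least 1.5-fold lower, near the share of all genes, and 1 was higher. The mean share among the 500 genes nearest in level to each was 19.6%. Their median was -0.47, or -0.65 with the trend removed and -0.54 with readings also raised to the floor. Many of the 55, such as Kif15, Pbk, Stil and Zwint, passed through Il34+/LacZ alone and had to read lower. Ska1 and Sgo2a passed through Il34LacZ/LacZ alone and had to read higher. Cenpw of the inner kinetochore was 2.88-fold lower (187.2 against 54.7), Ckap5, a microtubule polymerase, 2.33-fold, Cenpo 2.29-fold and Dlgap5, a spindle protein, 2.27-fold lower. Of 12 cohesin genes at the floor, 10 were lower by 1.5-fold or more and none was higher, and the median of -0.78 became -0.49 with the trend removed. The share lower in cohesin, 83.3%, stood beside a mean of 39.9% of the 500 nearest genes. Smc3 and Smc1a, the ATPases of that ring, were 2.25-fold and 2.13-fold lower, and the cohesin loaders Mau2 and Nipbl 2.48-fold and 2.15-fold lower. Of 15 genes of the anaphase-promoting complex, 10 (66.7%) were lower by that much, against 40.7% of the nearest genes, and none higher. Their median was -0.95, or -0.34 with the trend removed. Ube2s, which extends the ubiquitin chains of that complex, was 3.92-fold lower (833.5 against 200.8), Anapc5 2.57-fold, Anapc13 2.46-fold and Cdc27 at least 2.23-fold lower.

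Replication genes also read lower in Il34LacZ/LacZ. Of 47 genes of DNA replication and S phase at the floor, 21 were at least 1.5-fold lower and 1 higher, and their median was -0.58, or -0.29 with the trend removed. The mitosis genes gave -0.89 and -0.63, but these medians include the 13 genes that had to read lower. The replication medians likewise include Gmnn, Orc6, Pola1, Prim1, Rfc4 and Dbf4, which passed through Il34+/LacZ alone and had to read lower. With readings raised to the floor, the mitosis genes gave -0.73 and -0.57, and the replication genes -0.58 and -0.29. For the 31 mitosis genes at the floor on both arrays, the medians were -0.69 and -0.39. The replication genes were not cut to those at the floor on both arrays, so these medians have no matching pair. No test of the difference between the 2 lists is possible with 1 array per genotype. Rrm1, a ribonucleotide reductase subunit, was 3.03-fold lower, the single-strand binding protein gene Rpa2 2.40-fold, the helicase subunit gene Mcm3 2.38-fold and the origin gene Orc6 at least 2.35-fold lower. At least 1.5-fold lower were 44.7% of these genes, against a mean of 29.5% of the 500 genes nearest in level to each. At least 2-fold lower were 10.6%, against 12.4% of the nearest genes, so this share was not above its background.

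**Figure D3:**
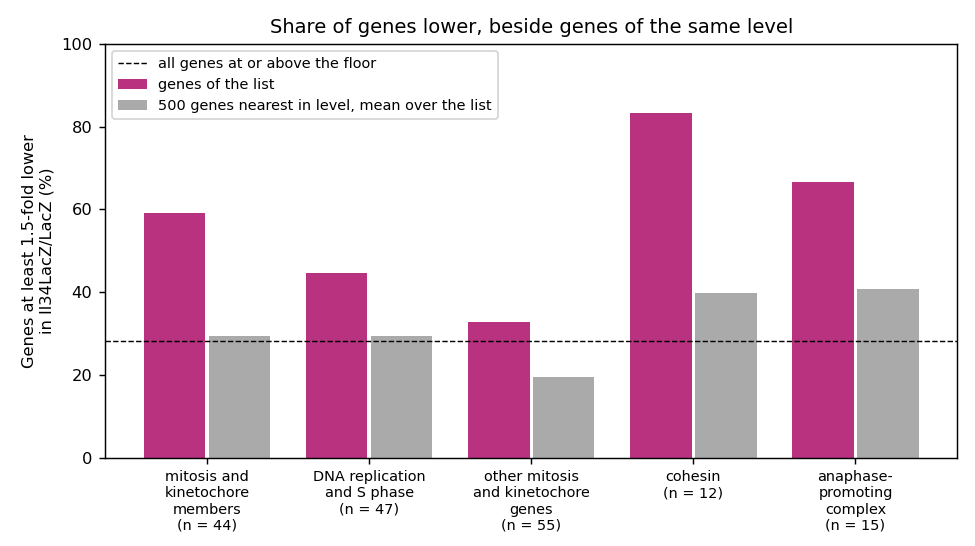
Share (%) of genes at least 1.5-fold lower in Il34LacZ/LacZ, for the 44 mitosis and kinetochore genes and 4 other lists (magenta), beside the mean share among the 500 genes nearest in level to each gene (grey) and the share of all genes, 28.2% (dashed line). The magenta bar exceeds the grey bar in each list, at 59.1% against 29.3% for the mitosis and kinetochore genes.

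The regulators of these genes were mixed. Of 21 cell cycle transcription factor genes, 8 (38.1%) were lower by 1.5-fold or more, against 28.2% of all genes, and 1 was higher, against 9.36%. The median of -0.39 became -0.10 with the trend removed. Nfyb and E2f3 had to read lower by the filter, and E2f5 and Tfdp2 higher. E2f4, the repressor E2F of resting cells, read 389.6 and 84.1, 4.05-fold lower. Nfyb and Nfyc, subunits of the CCAAT-binding factor NF-Y, were at least 3.34-fold and 2.86-fold lower, and the histone-binding protein gene Rbbp4 2.89-fold lower. Nfya, the other subunit of NF-Y, was named after its values were seen and read 216.5 and 156.4, 1.35-fold lower, and 0.03 with the trend removed. Foxm1 and Mybl2, activators of G2 and M phase genes named after their values were seen, read 120.5 and 96.7, and 122.6 and 151.4, both within the probe set SD. Of 11 regulators of G1, 6 (54.5%) were lower by 1.5-fold or more and none was higher, again beside 28.2% and 9.36% of all genes, led by Cdk2 at 4.15-fold (374.3 against 78.1). The cyclin D1 gene Ccnd1 was 2.32-fold, Rb1 1.89-fold and Myc 1.87-fold lower. Cdk7 and Mnat1, also of the 11, had to read lower by the filter. The median of the G1 genes, -0.70, became -0.37 with the trend removed. Cdk2 and Ccnd1 were then at -1.61 and -0.63, and Rb1 and Myc at -0.42 and -0.28, the last 2 within the probe set SD. Of 6 genes of CDK inhibitors, Cdkn2a (54.3 against 122.1) and Cdkn1c (52.1 against 117.0) were 1.96-fold and 1.95-fold higher, and Cdkn2c was 1.66-fold lower. Cdkn1b was 1.43-fold lower, but 0.11 with the trend removed.

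**Figure D4:**
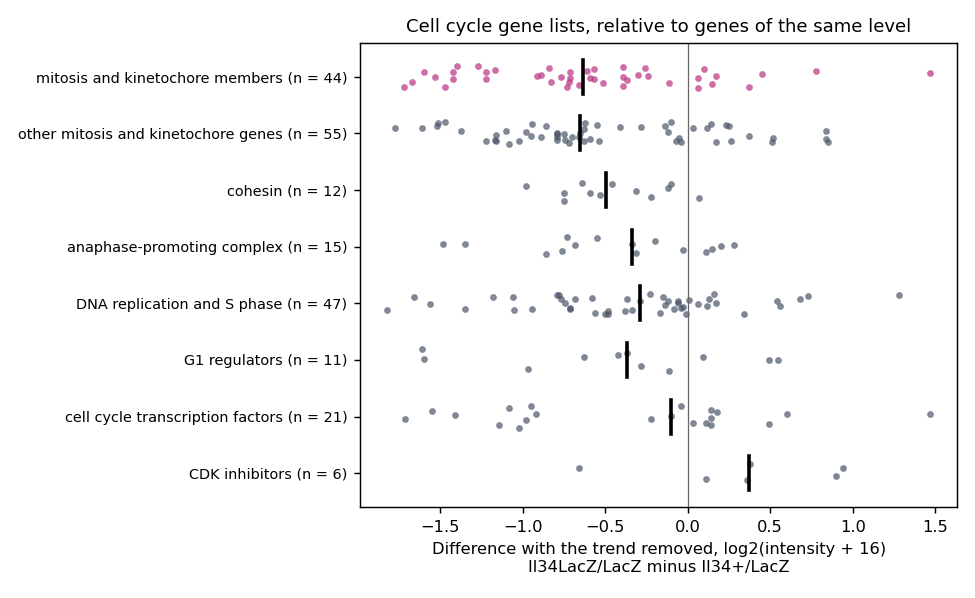
Difference with the trend removed, on log2(intensity + 16), Il34LacZ/LacZ minus Il34+/LacZ, for each gene at the floor (points, with vertical jitter) in 8 cell cycle lists, with the list median as a black bar. The median is -0.63 for the mitosis and kinetochore genes (magenta), -0.29 for replication and 0.37 for CDK inhibitors. With readings raised to the floor these medians are -0.57, -0.29 and 0.37. The mitosis and kinetochore genes include 13 that had to read lower by the filter. The replication list and some of the other lists also hold such genes.

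Genes of other skin cells differed between the same arrays. Of 18 keratinocyte genes, 15 read lower in Il34LacZ/LacZ, and their summed level was 5918.6 and 1511.0. Krt14 and Krt5, keratins of the basal layer where keratinocytes divide, read 787.4 and 58.6, and 1187.5 and 138.0. The 9 T cell genes, 5 lower and 4 higher, summed to 9042.5 and 8248.4, and the 11 monocyte and macrophage genes, 3 lower and 8 higher, to 2666.0 and 4798.2. The 13 Langerhans cell genes, 12 of them lower, summed to 49158.4 and 39717.4. Of all genes at or above the floor, 56.3% read lower. With the trend removed, medians of the genes at the floor were -0.09 for Langerhans cell and 0.42 for T cell genes. They were -1.04 for keratinocyte genes and 0.99 for monocyte and macrophage genes, against 0.03 over all genes. Mast cell genes (5), 2 lower and 3 higher, summed to 697.2 and 358.5, of which Kit alone read 547.3 and 196.1. Fibroblast genes (6) summed to 247.5 and 395.5, and melanocyte genes (6) to 227.3 and 371.0, all of them higher. In the mast cell, fibroblast and melanocyte lists, 3 genes each were below the floor on both arrays. The part of any of these cells in the lower mitosis readings was not tested.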

How the data were processed

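The values are linear intensities that the authors deposited, already summarised to probe sets. Their background correction, and how arrays were scaled, are steps not given in the sources used here. RNA was isolated from cells sorted into lysis buffer, and cRNA was made from 2 ng, per the labels' protocols. The platform annotation gave 21640 of 34760 probe sets 1 gene symbol, 1321 several and 11799 none. Of the first, 21553 had a gene number in the RefSeq table (GRCm38.p6). The brightest probe set on average stood for a gene.

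The transform, floor, loess trend (smoothing fraction 0.3) and the comparison with the 500 nearest genes are described with the results. Both readings were raised to the floor before folds and counts. Medians use measured values. The code was tested on simulated data. Python 3.11.15, numpy 2.4.6, pandas 2.3.3 and statsmodels 0.14.6 were used.

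The group and all lists were chosen with earlier results of these data known. All 48 genes were named, and up to 4 genes with the largest difference in each companion list. Data with 1 array per genotype allow no test. Alternatives changed the floor, probe set rule, scaling, trend and pseudocount.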

Additional observations from a re-analysis of the deposited data

How the results depend on the processing

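The median difference of the mitosis genes was below 0 in each of 12 alternatives, from -1.04 with the arrays centred on their medians to -0.58 with a pseudocount of 64, and was -0.73 with readings below the floor raised to it, an alternative chosen after seeing the data. Centring on the 75th percentile moved the median of all genes from -0.16 to 0.11 and that of the mitosis genes to -0.63. The share of all genes at least 1.5-fold lower and higher was then 17.6% and 18.0%, in place of 28.2% and 9.36%. It was 35.1% and 5.67% with the arrays centred on their medians, and 16.9% and 14.4% after quantile normalization. The count at least 1.5-fold lower fell from 26 to 9 with the floor at the 75th percentile, where only 26 genes passed, folds were bounded by a higher floor and 36.2% of all genes were lower by as much. The count at least 2-fold lower fell from 13 to 5 with that floor, to 5 with the arrays centred on the 75th percentile, to 6 after quantile normalization and to 2 with a pseudocount of 64. The count at least 1.5-fold higher was 2 instead of 1 after quantile normalization and with either removal of the trend. None of the 27 genes at least 1.5-fold apart changed direction in these alternatives, but 6 of the other 20 did (Ccnb2, Cdca3, Plk1, Cenpa, Spc24 and Ncaph). A changed floor or pseudocount could not change a direction, nor could the probe set rule for a gene with 1 probe set. The 27 were picked for large differences, and 8 of them had to read lower by the filter, so their unchanged direction says little. No paired analysis was possible because each genotype has 1 array. No replicate could be left out for the same reason. Readings near the floor limit Cdc25c, Ttk and Cenpk, for which no fold can be given.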

Other observations

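The kleisin subunits of both condensins differed little, and were compared after their values were seen. Ncaph2, the kleisin of condensin II, read 124.7 and 145.4, a difference of 0.20, beside 0.02 for Ncaph of condensin I. The regulatory subunits of condensin II read lower, Ncapd3 at 129.0 and 60.8 and Ncapg2 at 93.8 and 32.0, or 1.89-fold and at least 1.70-fold. Ncapg2 had to read lower by the filter. The MIS12 complex, which links the NDC80 rod to the centromere, was also uneven. Mis12 read 194.9 and 87.2, 2.04-fold lower, while Pmf1 read 272.2 and 259.2. In the inner kinetochore network, Cenpl was at least 1.78-fold lower (99.0 against 25.6), and Cenpm was 1.89-fold higher (52.7 against 113.5). Cenpl had to read lower by the filter.

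Tfdp1, the dimerization partner of E2F factors, read 556.7 and 1030.9, 1.83-fold higher, beside an E2f4 reading that was 4.05-fold lower. Rbl2, the p130 pocket protein that pairs with E2F4 in resting cells, read 172.2 and 50.6, 2.82-fold lower. Gins2 of the replication helicase read 210.0 and 352.0, 1.63-fold higher, and was the only replication gene at least 1.5-fold higher. These genes were named after their values were seen.

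Top2a has a second probe set of its own that read 8.1 and 4.3, far below the floor. Of 2 probe sets annotated with both Top2a and Hibadh, 1 read 63.2 and 4.3 and the other 8.3 and 4.3, and neither was used.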
